A study of Homo sapiens with 4 samples.

Results

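The genes described here are 30 established transcriptional targets of p53, from a list chosen with earlier results of these data known. They were found among the 58735 genes of the deposited tables through their Ensembl identifiers in GENCODE 29. All 30 matched. Of these, 28 had a mean of at least 1 FPKM (reads divided by exon length and by library depth) over the libraries and could be tested, while TIGAR and SPATA18 lay below that level. The study holds 4 RNA-seq libraries of HT8, a human cell line whose tissue is labelled as colon cancer. In the labels, 2 libraries have the genotype control (named HT8) and 2 the genotype PPDPF knockdown (named HT8-cas1). The sources used here do not say what these names stand for, how the knockdown was made, whether the line is 1 clone or how the cells were treated.

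p53 is a transcription factor that is held at a low level by the ubiquitin ligase MDM2 and accumulates after DNA damage and other stresses. It binds a DNA element made of repeated decamers and raises the transcription of genes that stop the cell cycle, repair DNA, change metabolism or start apoptosis, and of genes such as MDM2 that limit p53 itself. Much of its control lies in the stability of the protein, which RNA levels do not show.

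Where a p53 element lies close to a gene's start, its letters can be read in the promoter. RefSeq promoter windows of 300 bases (GRCh38.p14, 250 before to 50 after a start) were found for 26 of the 30 genes, as 37 windows, since some genes have several starts. PHLDA3, RRM2B, TNFRSF10B and TP53INP1 had none. The search was for the p53 half-site decamer, and for 2 of its cores (C and G around 2 bases that are each A or T) placed 6 bases apart, on both strands. The second pattern overlaps the first, because each decamer holds 1 such core in its middle. A decamer match was present in windows of 7 of the 26 genes (26.9%), against 8.06% of all 27305 genes with a window, and the paired cores in 6 of the 26 (23.1%), against 5.85%. Of the genes with a decamer match, AEN, DDB2, FAS, FDXR and RPS27L were called higher in the libraries labelled knockdown, and PLK2 and SESN1 were not called. Of the genes with paired cores, 3 were called higher (AEN, FAS and RPS27L) and 3 were not called (GDF15, SESN1 and TRIAP1). Among all tested members with a window, 13 were called higher and 11 were not called. Because the members are known p53 targets and the windows are short, these shares only describe the windows. A match is not a shown binding site, and a window without one says only that these letters are absent there. The matches are shown 5′ to 3′ on the gene's strand, with the matching bases in capitals, since they let the sites of called and uncalled genes be read against each other.
AEN: ggagccGGGCTTGCCCGGGCATGtgggagc
DDB2: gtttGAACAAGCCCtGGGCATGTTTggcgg
FAS: actcctGGACAAGCCCTGACAAGccaagcc
FDXR: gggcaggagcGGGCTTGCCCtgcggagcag
RPS27L: gagggcCTAGAGCAGACAAGCCCgccccgc
PLK2: tggcgggacaAGACTTGCTTcccggccacg
SESN1: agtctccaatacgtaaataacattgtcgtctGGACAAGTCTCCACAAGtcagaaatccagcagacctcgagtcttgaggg
GDF15: acctgcacagcCATGCCCGGGCAAGaactc
TRIAP1: tgtgggggaggCATGCACGGACATGaagcg

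These stretches lie at chr15:88621300-88621329 (AEN), chr11:47214975-47215004 (DDB2), chr10:88991303-88991332 (FAS), chr17:74872986-74873015 on the minus strand (FDXR) and chr15:63157520-63157549 on the minus strand (RPS27L). Those of the genes that were not called lie at chr5:58460199-58460228 on the minus strand (PLK2), chr6:109008989-109009068 on the minus strand (SESN1), chr19:18386178-18386207 (GDF15) and chr12:120446335-120446364 on the minus strand (TRIAP1). DDB2 alone held 2 decamers, and they were separated by a single base. In GENCODE 29 the matches of AEN, DDB2, FDXR, PLK2 and RPS27L fell in exons annotated as untranslated. That of FAS fell in an exon of FAS and in an untranslated exon of ACTA2 on the other strand, that of SESN1 in an intron, and those of GDF15 and TRIAP1 reached into coding exons. TRIAP1 was the only one of the 26 genes in which both cores were CATG (CATGNNNNNNCATG), a pattern present in 0.472% of all genes with a window.

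The gene named in the labels was not lower. PPDPF stood at 237 and 266 FPKM in control against 281 and 283 FPKM, a log2 fold change of 0.16 (SE 0.06, limma adjusted p = 0.0940). The second group is therefore called the libraries labelled knockdown throughout, and every difference is of these libraries relative to control. Reads in genes ranged from 17069628 to 19479906 per library. Of 12 markers of colon epithelium, 11 reached a mean of 1 FPKM, with summed levels of 2682 and 2874 FPKM in control and 3223 and 3200 in the libraries labelled knockdown. Of these 12, GPA33 was near 0, at 0.0184 to 0.191 FPKM. Of the 11, 6 rose and 1 fell at a limma adjusted p under 0.05 (54.5% and 9.09%), beside 16.8% and 13.0% of all genes tested. KRT20, a keratin of differentiated colon epithelium, had the largest fold of the 11, from 11, 26, 83 and 92 reads. It went from 0.528 ± 0.267 to 2.77 ± 0.236 FPKM (limma adjusted p = 0.00551). The marker that fell was CDH1, from 119.7 ± 1.27 to 109.1 ± 3.02 FPKM (limma adjusted p = 0.0377). CDX2 and CDH17 also had log2 fold changes below 0 but were not called (limma adjusted p = 0.160 and 0.278). The 6 fibroblast markers summed to 0.640 and 0.723 FPKM in control against 0.377 and 0.504, and the 5 immune markers to 2.01 and 2.18 against 1.26 and 1.21. CD14, a monocyte marker and the only one of these tested, fell from 1.71 ± 0.208 to 0.884 ± 0.0330 FPKM (limma adjusted p = 0.0336). The 4 endothelial markers summed to 0.0456 to 0.185 FPKM over the 4 libraries. The epithelial, fibroblast and immune sums thus differed between the groups without overlap, as the called p53 targets did. Of all genes tested, 35.9% lay higher and 33.8% lower without overlap. No fibroblast marker reached a mean of 1 FPKM, and CD14 alone of the immune markers did. The part of these sums in the results of the p53 targets was not tested. COL1A2, DCN, PTPRC, CD3E, CDH5 and KDR were at 0 in each library. The labels do not tell whether libraries of one group are separate cultures, so the p-values speak only of the spread among these libraries, which may be technical. In bulk RNA, fewer cells with a transcript and less of it per cell cannot be told apart.

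The p53 targets that passed the test were all higher in the libraries labelled knockdown, by small factors. Of 28 tested, 15 rose and 0 fell (limma-trend on log2(FPKM + 1), Benjamini-Hochberg adjusted p under 0.05 over all genes tested, two-sided). Among all 12777 genes tested, 16.8% rose and 13.0% fell. At an unadjusted p under 0.05, 18 members were higher and 2 lower, beside 23.2% and 19.7% of all genes. limma-voom on recovered reads called 17 and 2, beside 19.6% and 21.2%. The folds of the 15, given as FPKM + 1, which slightly understates the change of low genes, ran from 1.13 to 1.59 with a median of 1.28. The median log2 fold change of the 28 was 0.19, beside 0.0011 over all genes tested. In 20 of the 28 both libraries labelled knockdown lay above both controls, where 35.9% of all tested genes did so, and in 3 both lay below, where 33.8% did. Fewer members were called higher with any 1 library left out, as among all genes. In those fits the median log2 fold change of the members ran from 0.16 to 0.24, beside 0.0031 to 0.0051 over all genes. With no filter the 15 became 10, where 1134 of 28965 genes rose. TP53INP1, PHLDA3, CDKN1A, FDXR, ZMAT3, MDM2, PLK3, DDB2 and BAX stayed called in each of the 13 alternative settings.

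**Figure D1:**
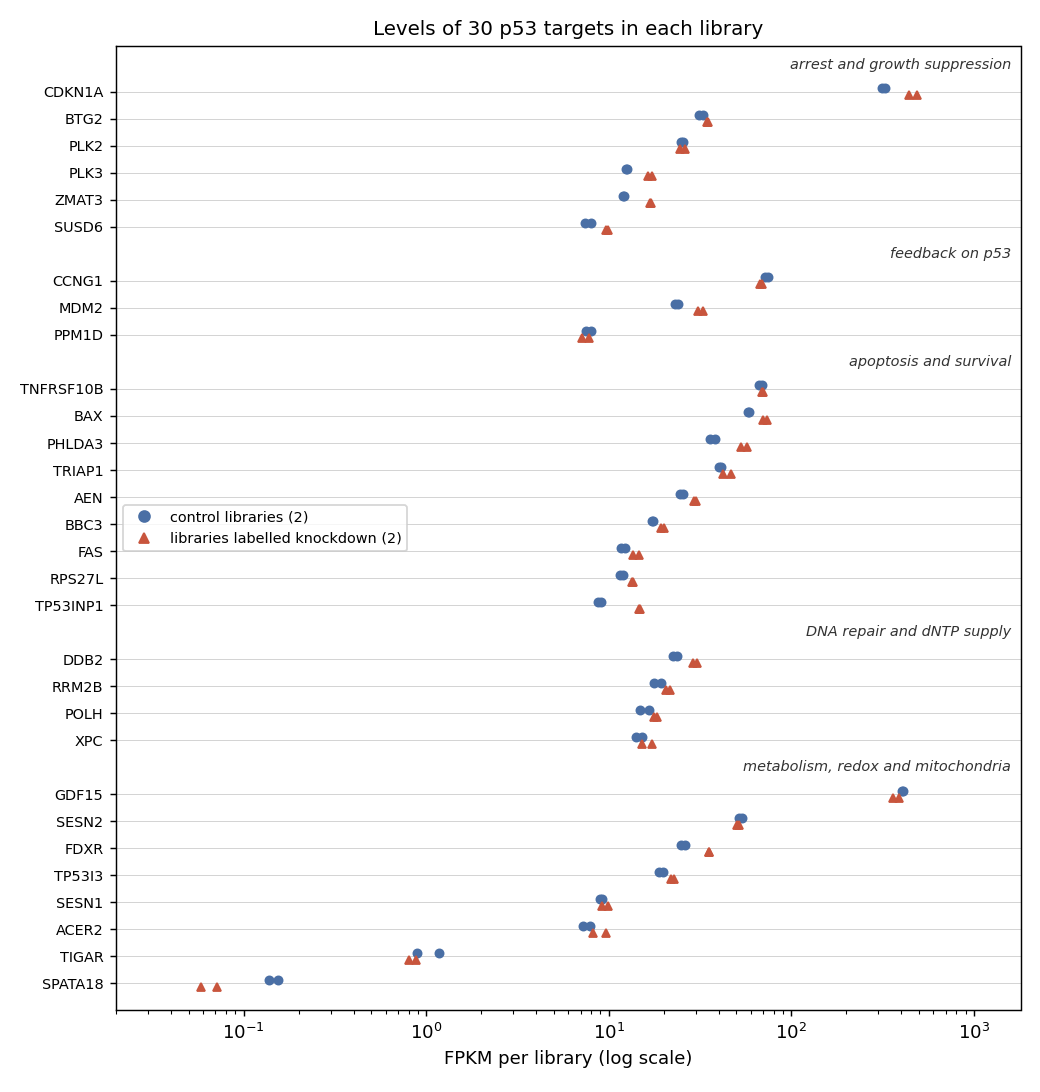
FPKM of the 30 p53 targets in each library on a log axis, by class, with circles for the 2 control libraries and triangles for the 2 libraries labelled knockdown. CDKN1A and GDF15 lie above 300 FPKM and every other member below 80, and the triangles stand to the right of the circles for CDKN1A but to their left for GDF15.

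The set was dominated by 2 transcripts. CDKN1A and GDF15 together made up 51.8% to 53.1% of the summed FPKM of the 30 genes over the 4 libraries. Their own shares moved apart, with CDKN1A at 22.7% and 23.5% in control against 29.6% and 28.4%, and GDF15 at 29.4% and 29.5% against 23.6% and 23.4%. The sum of the 30 was itself 1382 and 1394 FPKM in control against 1641 and 1544, which lowers the share of any gene that does not rise. GDF15 was not called in FPKM + 1 (log2 fold change -0.13). The other 28 genes summed to 663 and 655 FPKM in control against 769 and 744 FPKM.

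Among the 6 arrest and growth suppression targets, 4 rose and 2 were not called (66.7% higher, beside 16.8% of all genes tested). Whether the share of this or any other class differs from that of all genes was not tested. CDKN1A encodes p21, the inhibitor of cyclin-dependent kinases through which p53 stops the cycle (chromosome 6, 36676460 to 36687339, GRCh38). Its level was 313.6 and 327 FPKM in control against 485 and 439 FPKM in the other group, counted from 16818, 19613, 25540 and 22701 reads. Both values of the libraries labelled knockdown were above both controls, and the nearest 2 were 111.8 FPKM apart. The means of 320.4 ± 9.63 and 462 ± 32.7 FPKM (SD, n = 2 each) give a fold of 1.44 (log2 fold change 0.53, SE 0.06, limma adjusted p = 0.00381).

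ZMAT3, an RNA-binding zinc finger protein with a part in p53-dependent tumour suppression, had 11.9 and 12.2 FPKM in control and 16.7 and 17.0 in the libraries labelled knockdown. The pair in each group lay close together and far from the other pair, and the fold was 1.37 (limma adjusted p = 0.00248). PLK3, a polo-like kinase of the stress response, had 12.6 and 12.4 FPKM against 17.3 and 16.5, a fold of 1.33 (limma adjusted p = 0.00395). It shares 2.24% of its exon bases with TCTEX1D4 on the other strand, which had 2.60 to 6.08 FPKM.

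Its relative PLK2 was not called. PLK2 had 25.0 and 25.6 FPKM in control and 26.2 and 24.7 in the libraries labelled knockdown, so the groups overlapped (log2 fold change 0.0060, SE 0.04, limma adjusted p = 0.931). PLK2 was thus 1.99 and 2.07 times the level of PLK3 in FPKM in the control libraries and 1.51 and 1.50 times in the others. SUSD6, a membrane protein known as a p53-induced growth suppressor, went from 8.04 and 7.44 to 9.67 and 9.85 FPKM (1.23-fold, limma adjusted p = 0.0157). That call was lost without control replicate 2, without either library labelled knockdown, and with no filter on low values (limma adjusted p = 0.0583 to 0.0715). BTG2, an antiproliferative regulator of mRNA decay, had 32.6 and 31.1 FPKM against 35.1 and 34.6, a fold of 1.09 that missed the threshold (limma adjusted p = 0.0655). It was called among genes with a mean of at least 5 FPKM (0.0444). The 30 tested genes nearest to BTG2 on chromosome 1 had a median log2 fold change of 0.20, larger than the 0.13 of BTG2 itself.

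Of the 3 feedback genes, only MDM2 passed the test (33.3% higher, beside 16.8% of all genes tested). MDM2 marks p53 for degradation and is itself induced by p53 (chromosome 12, 68808176 to 68850686). It had 24.0 and 23.0 FPKM in control and 32.9 and 30.8 in the libraries labelled knockdown, with no overlap of the groups. The means were 23.5 ± 0.756 and 31.9 ± 1.52 FPKM, a fold of 1.34 (log2 fold change 0.42, SE 0.05, limma adjusted p = 0.00459). PPM1D, the phosphatase WIP1 that reverses the activating phosphorylation of p53 and its kinases, had 7.49 and 7.94 FPKM against 7.12 and 7.82. Its groups overlapped (log2 fold change -0.041, SE 0.06, limma adjusted p = 0.661). CCNG1, cyclin G1, which acts with MDM2 and protein phosphatase 2A, had 71.8 and 74.4 FPKM against 67.6 and 68.7. Both values of the libraries labelled knockdown lay under both controls (fold 0.933, limma adjusted p = 0.0801), and CCNG1 was called lower under quantile normalization, when scaled to reads outside the mitochondrial genome and with limma-voom (limma adjusted p = 0.0474, 0.0345 and 0.0106).

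In the class of apoptosis and survival, 7 of 9 genes rose and 2 were not called (77.8% higher, beside 16.8% of all genes tested). TP53INP1, a nuclear and autophagy-linked protein that promotes p53-dependent cell death (chromosome 8, 94925972 to 94949411), had the largest fold of the 28 tested genes. It had 8.75 and 9.06 FPKM in control and 14.9 and 14.6 in the libraries labelled knockdown, from 873, 1011, 1459 and 1408 reads. The fold was 1.59 (log2 fold change 0.67, SE 0.04, limma adjusted p = 0.00136), and the 30 nearest tested genes had a median log2 fold change of -0.064. PHLDA3, a pleckstrin homology protein that opposes AKT at the membrane, had 38.2 and 36.0 FPKM against 57.5 and 53.2 (1.48-fold, limma adjusted p = 0.00277).

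BAX, the pore-forming effector of the mitochondrial death pathway, had 57.8 and 58.3 FPKM in control and 73.1 and 70.2 in the libraries labelled knockdown. The means of 58.1 ± 0.370 and 71.6 ± 2.09 FPKM give a fold of 1.23 (limma adjusted p = 0.00469). BBC3, the BH3-only protein PUMA, had 17.4 and 17.2 against 19.4 and 20.0 FPKM, a smaller fold of 1.13 (limma adjusted p = 0.0269). AEN, an exonuclease of apoptotic cells, went from 24.4 and 25.5 to 29.9 and 29.2 FPKM (1.18-fold, limma adjusted p = 0.0130).

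The 2 death receptors differed in their calls, and their difference from each other was not tested. FAS had 12.2 and 11.6 FPKM in control and 14.6 and 13.6 in the libraries labelled knockdown (1.17-fold, limma adjusted p = 0.0362), while its 30 nearest tested genes on chromosome 10 had a median log2 fold change of -0.15. FAS shares 8.93% of its exon bases with ACTA2 on the other strand, which had 2.10 to 2.61 FPKM. TNFRSF10B, the TRAIL receptor DR5, had 66.5 and 68.8 FPKM against 70.0 and 68.7. Its groups overlapped (log2 fold change 0.035, SE 0.03, limma adjusted p = 0.462), so TNFRSF10B was 5.45 and 5.93 times the level of FAS in control and 4.80 and 5.07 times in the others.

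RPS27L, a ribosomal protein paralog with reported effects on MDM2 and p53, had 11.9 and 11.6 FPKM against 13.5 and 13.4 (1.13-fold, limma adjusted p = 0.0309), and its close paralog RPS27 may share its reads, so its level is uncertain. TRIAP1, a small mitochondrial protein that favours survival, had 40.2 and 41.3 FPKM against 46.6 and 42.4 (1.09-fold, limma adjusted p = 0.143). The calls of BBC3, FAS and RPS27L did not survive the loss of any 1 library, with limma adjusted p = 0.0749 to 0.117 for BBC3, 0.0568 to 0.138 for FAS and 0.0860 to 0.123 for RPS27L. They were also lost without the filter (limma adjusted p = 0.0582, 0.106 and 0.0630). FAS and RPS27L also lost theirs under quantile normalization (limma adjusted p = 0.0591 and 0.0522) and scaled to reads outside the mitochondrial genome (0.0567 and 0.0518), and RPS27L with the replicate number as a block (0.0520). AEN lost its call without control replicate 1 and without either library labelled knockdown (limma adjusted p = 0.0506 to 0.0693). The class therefore held fewer called genes with any 1 library left out, as did the set of all genes. With no filter it held 4, where 1134 of 28965 genes rose.

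**Figure D2:**
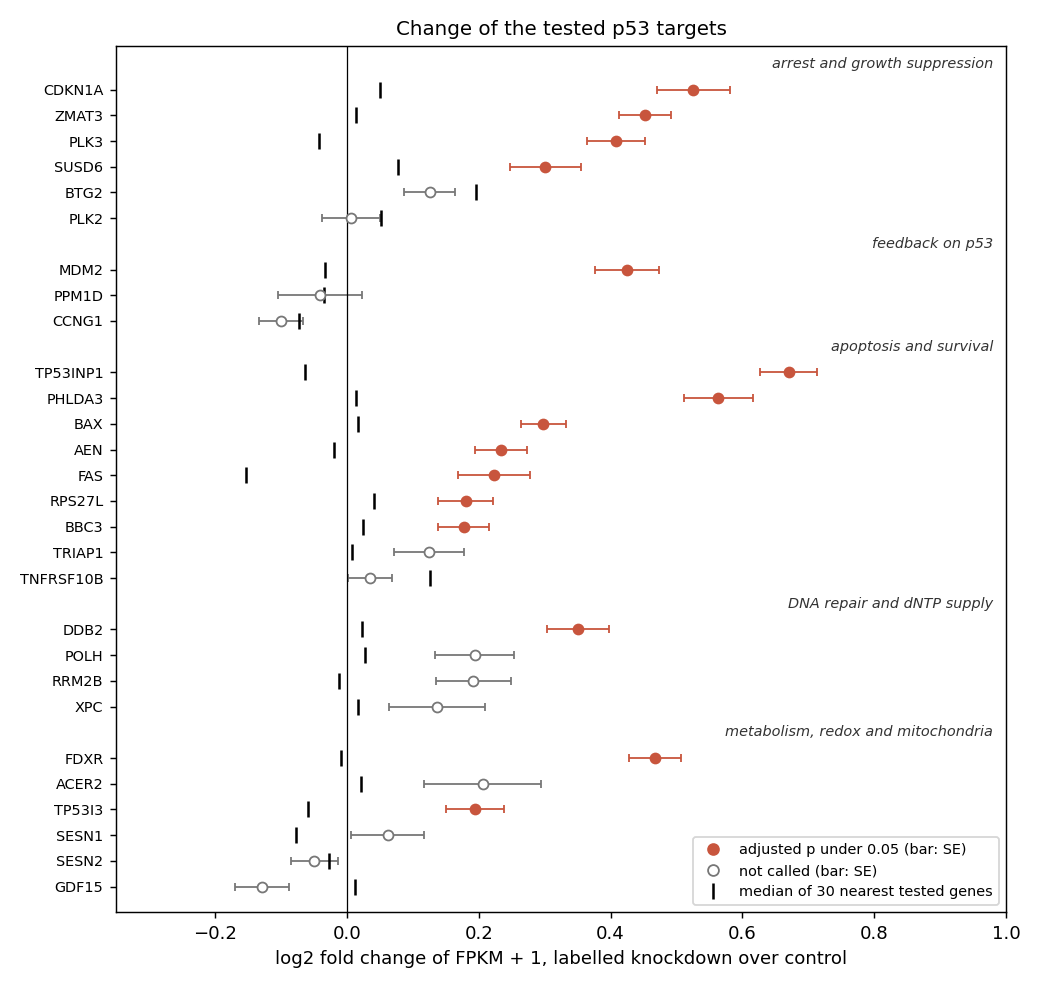
Log2 fold change of FPKM + 1 (labelled knockdown over control) with its SE for the 28 tested p53 targets, by class. Filled points passed an adjusted p of 0.05, and black ticks mark the median log2 fold change of the 30 nearest tested genes on the same chromosome. The ticks of the 15 filled points lie between -0.15 and 0.078, and of the 13 open points 6 lie to the right of their tick and 7 to the left.

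Among the 4 genes of DNA repair and nucleotide supply, DDB2 rose and the other 3 were not called (25% higher, beside 16.8% of all genes tested). DDB2, the damage sensor of global nucleotide excision repair (chromosome 11, 47214465 to 47239240), had 23.7 and 22.4 FPKM in control and 30.5 and 28.95 in the libraries labelled knockdown. The fold was 1.28 (log2 fold change 0.35, SE 0.05, limma adjusted p = 0.00695). XPC, which recognises lesions in the same pathway, had 15.1 and 14.0 FPKM against 17.2 and 15.1, and its groups met at 15.1 FPKM (log2 fold change 0.14, SE 0.07, limma adjusted p = 0.219). XPC shares 23.8% of its exon bases with the antisense gene AC093495.1, which had 0.736 to 1.10 FPKM. On the other strand it also shares 6.63% with LSM3, at 15.2 to 18.1 FPKM, and 8.61% with AC090004.1, at 0.457 to 1.24 FPKM. Without a stated strand setting the reads of XPC and these genes cannot be told apart.

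POLH, the polymerase that copies past ultraviolet lesions, had 16.5 and 14.9 FPKM against 17.7 and 18.4 (fold 1.14, limma adjusted p = 0.0667). RRM2B, the p53-induced subunit of ribonucleotide reductase, had 19.3 and 17.6 FPKM against 21.7 and 20.7 (fold 1.14, limma adjusted p = 0.0593). In both genes the groups did not overlap. Both were called higher with limma-voom (limma adjusted p = 0.0238 for POLH and 0.0078 for RRM2B) and among genes with a mean of at least 5 FPKM (0.0346 and 0.0300), and RRM2B also with the replicate number as a block (0.0396). RRM2, the S-phase subunit that RRM2B can replace, remained the more abundant, since the ratio of RRM2B to RRM2 in FPKM was 0.403 and 0.348 in control and 0.458 and 0.476 in the libraries labelled knockdown.

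Of the 8 metabolic, redox and mitochondrial targets, 6 were tested and 2 of them rose (33.3%, beside 16.8% of all genes tested). FDXR, ferredoxin reductase of the mitochondrial electron chain for iron-sulfur and steroid synthesis (chromosome 17, 74862497 to 74873031), had 26.1 and 24.8 FPKM in control and 35.52 and 35.54 in the libraries labelled knockdown. The last 2 values were nearly equal, and the fold was 1.38 (log2 fold change 0.47, SE 0.04, limma adjusted p = 0.00229). TP53I3, the quinone oxidoreductase PIG3, went from 19.8 and 18.9 to 22.7 and 21.9 FPKM (1.14-fold, limma adjusted p = 0.0289). Its call did not survive the loss of any 1 library, where its log2 fold change ran from 0.16 to 0.23. The call was also lost with no filter (limma adjusted p = 0.0780) and under quantile normalization (0.0699). In these last 2 settings FDXR was the 1 gene of the class called.

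The sestrins, which restrain mTORC1 under stress, were not called. SESN1 had 8.95 and 9.20 FPKM against 9.92 and 9.12, with overlapping groups (log2 fold change 0.062, SE 0.06, limma adjusted p = 0.449). SESN2, which the ATF4 pathway also induces, had 53.7 and 51.5 FPKM against 51.4 and 50.2 (log2 fold change -0.049, SE 0.04, limma adjusted p = 0.355). ACER2, an alkaline ceramidase of the Golgi, had 7.88 and 7.23 FPKM against 9.63 and 8.14, a fold of 1.15 with the largest SE of the tested members (0.09, limma adjusted p = 0.144).

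GDF15, a secreted stress cytokine that p53 and the ATF4 pathway both induce, lay on the other side from CDKN1A. It had 405.8 and 411 FPKM in control and 387 and 361 in the libraries labelled knockdown, from 14893, 16876, 13930 and 12771 reads. Both of the latter lay under both controls, but the fold of 0.915 did not pass the test (log2 fold change -0.13, SE 0.04, limma adjusted p = 0.0714). GDF15 was called lower among genes with a mean of at least 5 FPKM, scaled to reads outside the mitochondrial genome, with limma-voom and without knockdown replicate 1 (limma adjusted p = 0.0405, 0.0432, 0.00039 and 0.0491).

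TIGAR, a bisphosphatase that diverts glucose to the pentose phosphate pathway, and SPATA18, a factor of mitochondrial quality control, were too low to test. TIGAR had 0.892 and 1.18 FPKM in control and 0.880 and 0.807 in the libraries labelled knockdown, from 63, 93, 61 and 55 reads. TIGAR shares 42.6% of its exon bases with AC008012.1 on the same strand, which was listed at 0, and how reads common to both were counted is not known. SPATA18 had 12 and 15 reads in control and 5 and 6 in the libraries labelled knockdown. With no filter neither was called (limma adjusted p = 0.600 and 0.252).

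The members were also set beside their neighbours on the chromosome. The median log2 fold change of the 30 nearest tested genes on the same chromosome ran from -0.15 to 0.078 around the 15 genes that rose. These were called for being higher, so their place above such medians restates the call. Of the 13 that were not called, 6 lay above the median of their neighbours and 7 below it.

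Over a list of relatives and regulators of p53, 26 of 29 symbols were tested, and 2 rose and 5 fell (7.69% and 19.2%), beside 16.8% and 13.0% of all genes tested. The median log2 fold change was -0.084. MDM4, the relative of MDM2 that blocks the activation domain of p53, had 4.70 and 4.78 FPKM in control and 3.50 and 3.60 in the libraries labelled knockdown (fold 0.793, limma adjusted p = 0.0158). The ratio of MDM2 to MDM4 in FPKM thus went from 5.12 and 4.81 to 9.41 and 8.56. The call of MDM4 did not survive the loss of any 1 library (limma adjusted p = 0.0560 to 0.0783) and was lost with no filter (0.0588). COP1, a ubiquitin ligase of p53, rose 1.32-fold, and PPP1R13L, the inhibitor iASPP, rose 1.25-fold, both in FPKM + 1 (limma adjusted p = 0.00803 and 0.00764). DAPK1, a death-associated kinase, fell from 3.83 ± 0.228 to 2.37 ± 0.0342 FPKM. Its ratio was 0.6175 in FPKM and 0.697 in FPKM + 1 (limma adjusted p = 0.00884). ATM and CHEK2, the kinases that signal double-strand breaks to p53, and TP53RK also fell, and these 3 were named after their values were seen. With limma-voom, which called 21.2% of all genes lower, the 5 became 12. With no filter they became 1, where 734 of 28965 genes fell. Fewer were also called lower with any 1 library left out, as among all genes. In those fits the log2 fold changes ran from 0.35 to 0.45 for COP1, 0.30 to 0.34 for PPP1R13L and -0.57 to -0.47 for DAPK1.

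Other known p53 targets moved in both directions. Of 50 further targets, 43 were tested, and 16 rose and 7 fell, beside 16.8% and 13.0% of all genes tested. The median log2 fold change was 0.14. PERP, a desmosome-associated membrane protein linked to p53-dependent apoptosis, had 114 ± 0.479 FPKM in control and 203 ± 4.93 in the libraries labelled knockdown (1.77-fold, limma adjusted p = 0.000685). CMBL, a hydrolase, rose 1.51-fold (limma adjusted p = 0.00122), and the 30 tested genes nearest to it on chromosome 5 had a median log2 fold change of 0.29. TRIM22, which interferon also induces, fell from 3.85 ± 0.322 to 1.07 ± 0.0141 FPKM, a ratio of 0.278 in FPKM and of 0.427 in FPKM + 1, the scale of the test (limma adjusted p = 0.00191). ENC1, an actin-binding protein, fell to 0.794 of control (limma adjusted p = 0.00243). Fewer of these genes were called higher with any 1 library left out, as among all genes. In those fits the log2 fold changes ran from 0.80 to 0.85 for PERP and from 0.57 to 0.62 for CMBL. They ran from -1.30 to -1.16 for TRIM22 and from -0.34 to -0.32 for ENC1. With no filter the 16 became 10, where 1134 of 28965 genes rose.

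Genes that p53 is known to repress through p21 and the DREAM complex, which shuts cell cycle promoters, were lower in part. Of 29 tested, 0 rose and 16 fell (limma-trend, adjusted p under 0.05), beside 16.8% and 13.0% of all genes. At an unadjusted p under 0.05 the numbers were 0 and 18, beside 23.2% and 19.7% of all genes, and with limma-voom 0 and 20, beside 19.6% and 21.2%. The median log2 fold change was -0.17. CDC20, an activator of the anaphase-promoting complex, fell from 102.5 ± 1.18 to 79.1 ± 0.390 FPKM (fold 0.773, limma adjusted p = 0.00191). CCNB1, cyclin B1, fell to 0.786 of control, the transcription factor E2F1 to 0.755 and the helicase subunit MCM5 to 0.761 (limma adjusted p = 0.00346, 0.00355 and 0.00599). CDC25C, BUB1B, AURKB and MYBL2 were among the 13 that were not called, with log2 fold changes of 0.026, -0.0048, 0.0051 and 0.049. Fewer of these genes were called lower with any 1 library left out, as among all genes. In those fits the log2 fold changes of CDC20, CCNB1, E2F1 and MCM5 stayed between -0.44 and -0.32. With no filter the 16 became 7, where 734 of 28965 genes fell. Whether the level of CDKN1A and these genes are linked in the 4 libraries was not tested, since too few samples exist for a correlation.

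**Figure D3:**
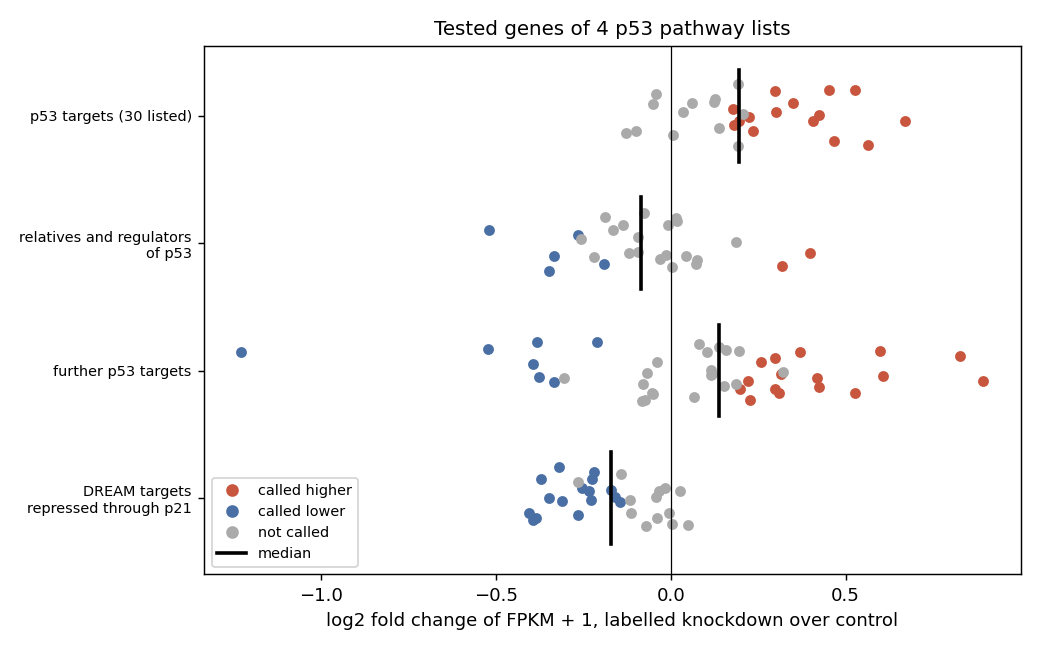
Log2 fold change of FPKM + 1 (labelled knockdown over control) of each tested gene in 4 lists, with the median as a black bar and called genes in colour. The medians are 0.19 for the p53 targets, -0.084 for relatives and regulators of p53, 0.14 for further p53 targets and -0.17 for the DREAM targets, and the vertical spread within a row has no meaning.

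**Figure D4:**
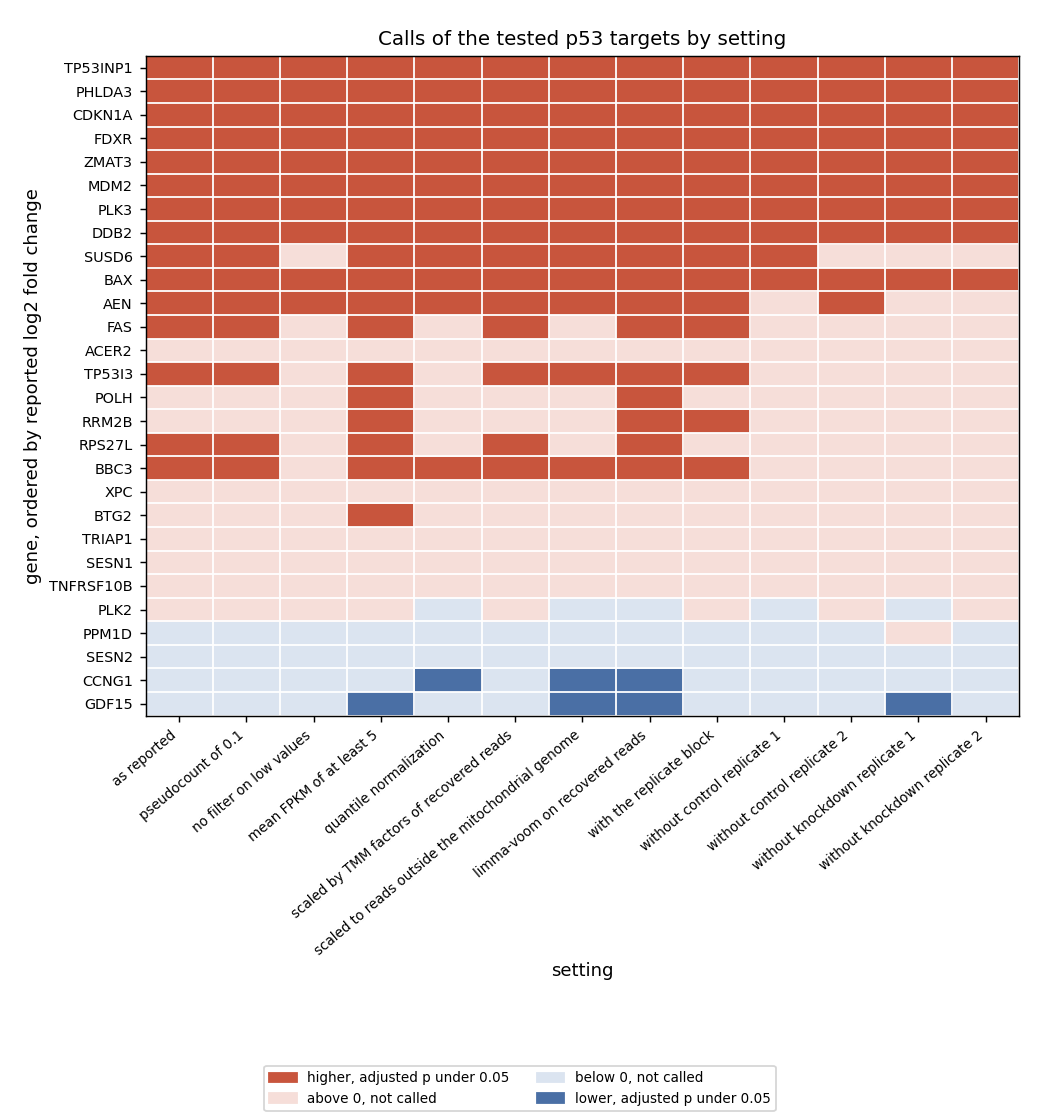
Call of each of the 28 tested p53 targets (rows, by reported log2 fold change) under the reported setting and 12 alternatives (columns). Dark red marks a gene called higher and dark blue one called lower at an adjusted p under 0.05. TP53INP1, PHLDA3, CDKN1A, FDXR, ZMAT3, MDM2, PLK3, DDB2 and BAX are dark red in each column, and GDF15 and CCNG1 are dark blue in some.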

How the data were processed

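Standard Illumina libraries were made from Trizol-extracted RNA, per the labels' protocols. HISAT2 2.0.5 and hg18 appear in the submitters' processing notes. The sources used here do not give the counting tool, its annotation, its strand setting or any filters. The authors deposited FPKM per gene, in 1 table per library. All 58735 gene identifiers matched GENCODE 29, so coordinates here are those of GRCh38 and not hg18. Reads recovered from FPKM and exon length were whole, within 0.01 of a read, for 100% of nonzero values. The depth behind the FPKM, recovered with them, differed from the reads in genes by 1.37% and 0.895% in control. In the libraries labelled knockdown it differed by -0.415% and -0.664%. limma-voom used the reads in genes as depth, and the part of this in the shifts between settings was not tested.

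Genes with a mean of at least 1 FPKM entered limma-trend as log2(FPKM + 1), with limma 3.58.1 in R 4.3.3, a model of group alone and 2 residual degrees of freedom. The two-sided p-values were adjusted over all 12777 genes by the Benjamini-Hochberg method, and the fit was tested on simulated data. Alternatives were a pseudocount of 0.1, no filter, a mean of at least 5 FPKM, quantile normalization, scaling by trimmed means of M values or to non-mitochondrial reads, limma-voom on recovered reads, a block for the replicate number, leaving out each library, and an adjusted p under 0.01. All members were named, with MDM4 and up to 4 called genes of smallest p from each other list, and genes outside this rule were chosen after their values were seen. Of the genes first listed, 2 are not reported here and were left out of their lists. The members, the lists and the choice of tests were made with earlier results of these data known. Promoter sequences are RefSeq's (GRCh38.p14). Figures used matplotlib 3.10.9, pandas 2.3.3 and Python 3.11.15.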

Additional observations from a re-analysis of the deposited data

How the results depend on the processing

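The tested members had 309 to 25540 reads per library. With 2 libraries per group each gene has 2 residual degrees of freedom, and fewer with a library left out or with the block. Each p-value therefore also leans on the spread that limma borrows from all genes tested. Of the 15 members called higher, 9 kept their call in each of the 13 alternatives, and 5 of the 13 uncalled ones were called in some alternative. The number called higher was 9 at an adjusted p under 0.01 and 9 to 10 with each library left out. The number called lower, 0 as reported, was 1 with a mean of at least 5 FPKM, 1 under quantile normalization, 2 scaled to non-mitochondrial reads, 2 with limma-voom and 0 to 1 with each library left out. PLK2 changed sign under quantile normalization, scaled to non-mitochondrial reads and with limma-voom (log2 fold change -0.031, -0.025 and -0.018), and without control replicate 1 or knockdown replicate 1 (-0.011 and -0.035, over the libraries left out -0.035 to 0.047). PPM1D did so without knockdown replicate 1 (0.019, over the libraries left out -0.101 to 0.019). These 2 genes were uncalled throughout. How many of all genes tested kept their call in each alternative, or gained one in some, was not counted. The counts of 9 and 5 members therefore have no share of all genes beside them.

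PPDPF stayed above 0, and was called with a mean of at least 5 FPKM (log2 fold change 0.16, limma adjusted p = 0.0459), with limma-voom (0.14, 0.0105) and without control replicate 2 (0.25, 0.0233), while its value ran from 0.081 to 0.25 with each library left out. Of all tested genes, 2152 rose and 1662 fell as reported, 1134 and 734 with no filter, 927 and 589 at an adjusted p under 0.01, 1141 to 1345 and 775 to 919 with each library left out, and 2502 and 2709 with limma-voom. Quantile normalization gave 1948 and 1883, and non-mitochondrial scaling 1881 and 2034. Deviations of same-numbered libraries from their group means were nearly uncorrelated over genes (r = -0.0021). With 2 libraries per group this is a single value, which cannot decide whether same-numbered libraries were handled together. With the replicate number as a block, 15 members rose and 0 fell, 1899 and 1405 of all genes did, and PPDPF was at 0.16. The causes of these shifts were not tested.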
